A study of Mus musculus with 64 samples.

Results

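The genes described here encode the MHC class I antigen presentation machinery of the mouse and the inducible subunits of the immunoproteasome. The 10 genes, of 55487 listed in the count tables, were chosen by name and not by their values: the heavy chains H2-K1 and H2-D1, the light chain B2m, the peptide transporter subunits Tap1 and Tap2, the peptide editor Tapbp, the catalytic subunits Psmb8, Psmb9 and Psmb10, and the transactivator Nlrc5. All 10 were among the 14537 genes with counts high enough to be tested. Their mRNA was measured by RNA sequencing in 64 libraries of bone marrow-derived macrophages (BMMs), cells grown from bone marrow with macrophage colony-stimulating factor from the supernatant of L929 fibroblasts. The question was how the class I machinery responds to bacterial activation, to 2 ligands of the aryl hydrocarbon receptor (AhR), a ligand-activated transcription factor, and to loss of this receptor.

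The libraries formed 16 groups of 4. BMMs came from female wild-type C57BL/6JRj (Ahr+/+) mice and from C57BL/6 AhR knockout (Ahr-/-) mice that had been back-crossed in-house to C57BL/6JRj, all aged 8 to 12 weeks. The methods name 4 mice of each genotype, but the labels do not tie a library to a mouse, so that p-values measure the spread between libraries, which may be technical. For each genotype, BMMs were kept for 6 h with 1 µM benzo(a)pyrene (BaP, a combustion product), 10 µM indole-3-carbinol (I3C, a plant compound) or 0.01% DMSO as vehicle. Heat-killed bacteria of Salmonella enterica serovar Enteritidis (abbreviated hk S.E., 10000000 per ml), a mixture of microbial ligands of pattern recognition receptors, was then added for 3 h or 20 h. A DMSO group without bacteria at each time and in each genotype served as resting control, and no resting BMMs received a ligand. The knockout was constitutive and not restricted to macrophages, so that the cells also differentiated without AhR.

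Between 12152496 and 50644601 read pairs per library fell on genes, apart from 233047331 in replicate 4 of the resting Ahr+/+ group at 20 h. The Ahr row does not resolve the deleted part of the gene, and its level was higher in Ahr-/- than in Ahr+/+ BMMs (12.8 to 13.1 against 4.46 to 9.77 CPM, that is counts per 1000000 counts of the normalized library size, after 3 h of hk S.E.), so that it checks nothing. The AhR target Ahrr, the AhR repressor, rose with BaP in Ahr+/+ BMMs at 3 h (log2 fold change 3.36, SE 0.26, edgeR adjusted p = 7.13e-14), whereas the value in Ahr-/- BMMs was -0.33 (adjusted p = 0.859). Macrophage markers summed to 17300 to 32700 CPM in every library, while T cell markers reached at most 2.70, NK cell markers 0.247, B cell markers 0.984 and mast cell markers 0.0915 CPM, and both globin genes were at 0. Neutrophil markers reached at most 184 CPM, fibroblast markers 29.4 CPM and dendritic cell markers 2.46 CPM. In bulk RNA, fewer cells of a type and less RNA per cell cannot be told apart.

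MHC class I molecules display peptides of intracellular proteins to CD8+ T cells. The peptides are cut by the proteasome, in which the immunoproteasome subunits take the place of constitutive ones, are carried into the endoplasmic reticulum by the transporter of Tap1 and Tap2, and are loaded with help of tapasin, the product of Tapbp. Interferons and NF-κB are known inducers of these genes, and Nlrc5 is the transactivator that acts at class I promoters through the factors bound to their X boxes.

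The regulatory letters in the window before the RNA start are shown for some of the genes with findings below, the heavy and light chain genes and the Tap1-Psmb9 pair. The sequences are from RefSeq (GRCm38.p6) and are read on the strand of the gene, with capitals for letters of an IRF element (AANNGAAA), a κB consensus, the core of an X2 box (TGACG) or a CCAAT box (CCAAT), on either strand. They are H2-K1 at chr17:34000348-34000547 on the minus strand, H2-D1 at chr17:35262894-35263093, B2m at chr2:122147487-122147686 and the 225 bases between the divergent starts of Tap1 and Psmb9 at chr17:34187331-34187555, the last 3 printed on the plus strand.
H2-K1: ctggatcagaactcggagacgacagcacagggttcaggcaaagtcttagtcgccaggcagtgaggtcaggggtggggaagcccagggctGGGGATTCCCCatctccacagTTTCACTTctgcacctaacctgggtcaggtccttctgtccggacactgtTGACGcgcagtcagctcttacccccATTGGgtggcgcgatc
H2-D1: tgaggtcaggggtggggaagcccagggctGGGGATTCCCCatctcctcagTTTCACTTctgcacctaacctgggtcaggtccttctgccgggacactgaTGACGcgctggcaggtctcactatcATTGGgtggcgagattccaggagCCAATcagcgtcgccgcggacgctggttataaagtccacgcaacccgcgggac
B2m: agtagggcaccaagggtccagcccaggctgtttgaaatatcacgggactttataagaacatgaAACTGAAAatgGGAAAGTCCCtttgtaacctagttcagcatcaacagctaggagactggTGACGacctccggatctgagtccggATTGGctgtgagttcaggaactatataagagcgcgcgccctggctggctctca
Tap1 and Psmb9: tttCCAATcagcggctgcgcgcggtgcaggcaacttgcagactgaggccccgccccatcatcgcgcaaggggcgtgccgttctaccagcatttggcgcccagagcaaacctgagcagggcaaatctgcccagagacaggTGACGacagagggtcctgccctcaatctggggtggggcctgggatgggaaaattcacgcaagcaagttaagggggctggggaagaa

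Of the 10 genes, 8 had an entry in the promoter table. H2-K1, H2-D1 and B2m each held an IRF element, a κB consensus, an X2 core and a CCAAT box within 250 bases before the start. The Tap1 and Psmb9 window held the X2 core and the CCAAT box, but neither an IRF element nor a κB consensus. Tapbp, Psmb8 and Psmb10 held no IRF element, κB consensus or X2 core, and of these only Tapbp held a CCAAT box. The X2 core lay 41 bases before the start of H2-K1, 101 before H2-D1, 78 before B2m, 86 before Tap1 and 144 before Psmb9. Among all 32851 promoters of that length, 21.3% held the IRF element, 7.25% the κB consensus, 17.8% the X2 core and 33.8% the CCAAT box. The longer ISRE core (GAAA, any 2 bases, GAAA), which overlaps the IRF element, was present in B2m and in 2.98% of all promoters. The letters GCGTG, the core of the AhR response element AHRE I, were found in H2-D1, Tap1, Psmb8, Psmb9 and Psmb10, that is 5 of the 8 genes, and in 28.2% of all promoters. These matches describe letters, not binding, and whether they have a part in the courses of the genes was not tested.

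The 10 genes lie on 3 chromosomes (GRCm38, GENCODE). The neighbours Psmb9 (chr17:34181987-34187764, minus strand), Tap1 (chr17:34187553-34197225), Psmb8 (chr17:34197721-34201454) and Tap2 (chr17:34203527-34216321) follow each other in the MHC, with Tapbp (chr17:33915899-33929292), H2-K1 (chr17:33996017-34000347, minus strand) and H2-D1 (chr17:35262730-35267499) on the same chromosome. B2m lies at chr2:122147686-122153083, Nlrc5 at chr8:94434356-94527272 and Psmb10 at chr8:105935735-105938444 on the minus strand. The annotated spans of Tap1 and Psmb9 overlap on opposite strands, and the reads were counted by strand.

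In resting Ahr+/+ BMMs at 3 h, levels per kilobase of exon ranged over a wide span. B2m was highest at 2293 ± 151 CPM per kb (SD, n = 4), followed by H2-D1 at 924 ± 108 and H2-K1 at 598 ± 68.9. Tapbp (99.99 ± 6.11), Psmb8 (65.1 ± 8.14), Psmb10 (41.3 ± 5.58), Tap1 (27.1 ± 1.06), Psmb9 (24.02 ± 2.30), Tap2 (18.6 ± 1.37) and Nlrc5 (4.85 ± 0.178) followed in that order. All neighbours in this order were apart in their 4 libraries except Tap1 and Psmb9, which overlapped. After 20 h of hk S.E. the order began with B2m (5459), H2-K1 (2323) and H2-D1 (2126 CPM per kb), the libraries of the heavy chains overlapped, and Tap1 (222) had moved next to Psmb8 (229). Reads that align to several places were not counted, so that levels of H2-K1 and H2-D1, which share sequence with each other and with the H2-Q and H2-T genes, are uncertain.

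**Figure D1:**
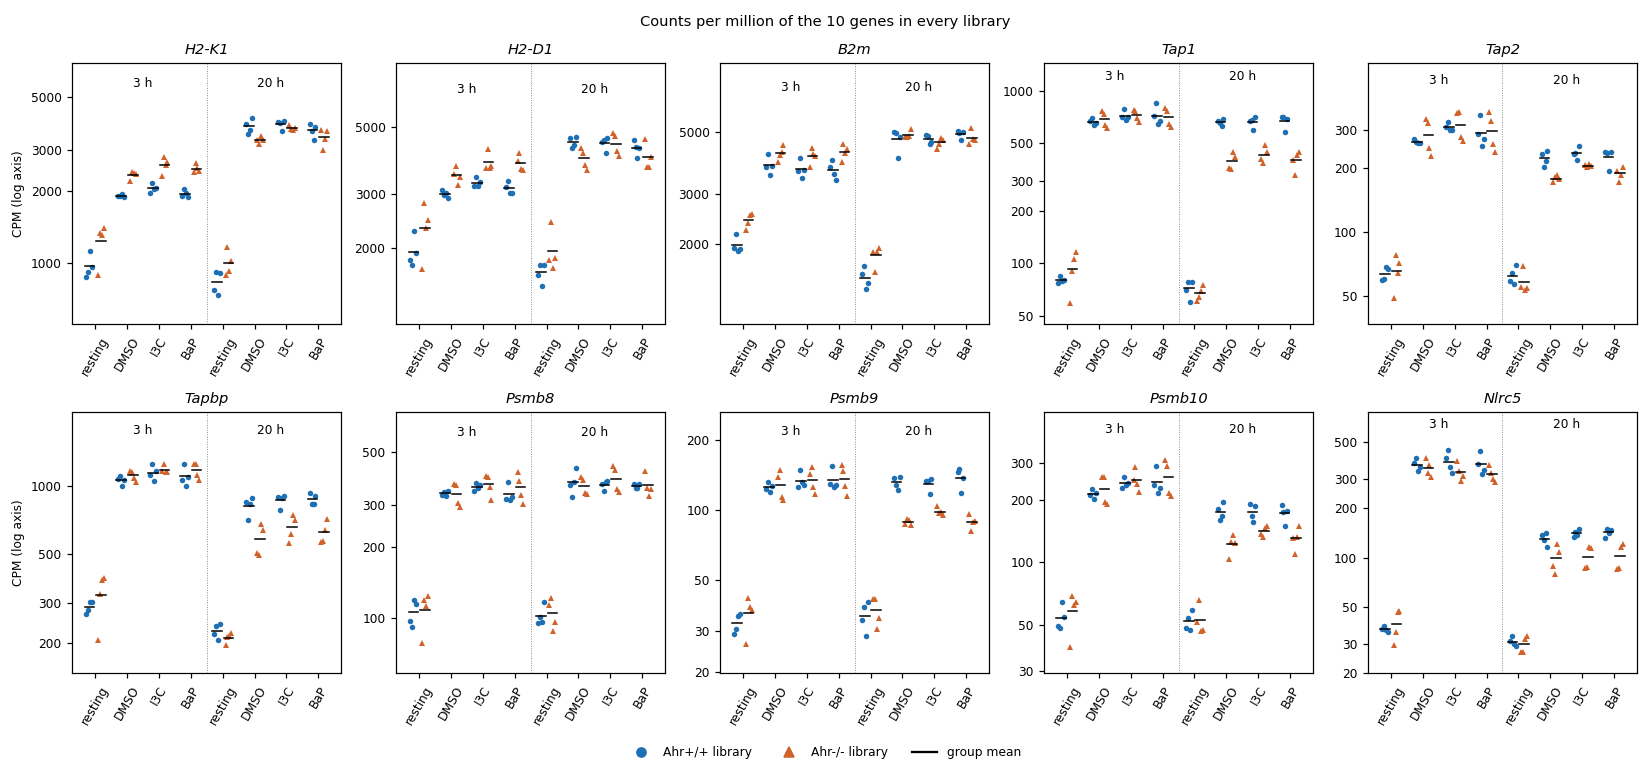
CPM (log axis) of the 10 genes in all libraries; the x axis gives resting BMMs and BMMs activated after DMSO, I3C or BaP at 3 h and 20 h, circles are Ahr+/+ and triangles Ahr-/- libraries, and lines are group means. Activated libraries lie above resting ones in every panel, and Nlrc5 is lower at 20 h than at 3 h of activation.

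Activation by hk S.E. raised all 10 genes, in both genotypes and at both times, and in all 4 comparisons every activated library lay above every resting one for each of them. Such a separation was common: activated libraries lay above all resting ones for 27.6% of all tested genes at 3 h and 33.2% at 20 h in Ahr+/+ BMMs, and for 24.6% and 26.9% in Ahr-/- BMMs. Nlrc5 and Tap1 rose most at 3 h, H2-D1 least. In Ahr+/+ BMMs, 24.2% of all tested genes were called higher at 3 h and 29.9% at 20 h (edgeR adjusted p below 0.01), in Ahr-/- BMMs 25.5% and 28.3%. The median log2 fold change of the 10 genes was 1.91 at 3 h and 1.86 at 20 h in Ahr+/+ BMMs, and 1.81 and 1.54 in Ahr-/- BMMs, beside medians over all tested genes of -0.105, -0.001, -0.076 and 0.022.

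The heavy chains carry the peptide and rose further between 3 h and 20 h. H2-K1 counts in Ahr+/+ BMMs at 3 h were 873, 914, 1127 and 959.6 CPM in resting and 1908, 1915, 1960 and 1900 CPM in activated libraries, a log2 fold change of 0.99 (SE 0.0907, edgeR adjusted p = 2.84e-14). At 20 h resting libraries had 769, 915, 736 and 906 CPM, and activated ones 3841, 3500, 3617 and 4083 CPM, a 4.52-fold difference (log2 2.18, SE 0.0937, adjusted p = 1.07e-27). Every activated library lay above every resting one, and those at 20 h lay above all at 3 h. H2-D1 rose by 0.63 at 3 h and 1.43 at 20 h on the log2 scale.

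B2m, the light chain shared by all class I molecules, took the same course. It had 1930, 2164, 1880 and 1914 CPM in resting Ahr+/+ libraries at 3 h and 3746, 4163, 3519 and 3786 CPM in activated ones (log2 fold change 0.95), and at 20 h it had 1555, 1661, 1378 and 1448 against 4984, 4954, 4037 and 4802 CPM (log2 1.64, SE 0.0740, adjusted p = 9.2e-27). The gain in the response to hk S.E. from 3 h to 20 h passed the interaction test for the heavy and light chains in both genotypes. It was 1.19 for H2-K1, 0.80 for H2-D1 and 0.69 for B2m in Ahr+/+ BMMs on the log2 scale (adjusted p = 9.97e-12, 1.34e-06 and 6.81e-08), and 0.80, 0.44 and 0.63 in Ahr-/- BMMs (adjusted p = 4.01e-07, 0.00531 and 4.72e-07). The call of H2-D1 in Ahr-/- BMMs was lost without any 1 of 10 of the 16 libraries, with values of 0.33 to 0.42 (adjusted p = 0.0114 to 0.0317). By this interaction 26.5% of all genes were called higher in Ahr+/+ and 25.2% in Ahr-/- BMMs, so that such a gain was common. In either direction the shares were 47.8% and 44.7%.

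Tap1 and Tap2 form the pump that moves peptides into the endoplasmic reticulum. Tap1 rose from 76.7, 84.3, 79.5 and 80.0 CPM to 663, 699, 628 and 652 CPM in Ahr+/+ BMMs at 3 h, which is 8.24-fold (log2 3.04, SE 0.128, adjusted p = 3.67e-28). At 20 h it stood at 70.2, 78.6, 59.5 and 78.6 CPM in resting and 668, 645, 622 and 682 CPM in activated libraries (9.12-fold, log2 3.19). The level of Tap1 in activated Ahr+/+ BMMs was thus reached by 3 h, and the difference between the times was -0.01 (adjusted p = 0.929, 95% interval -0.25 to 0.22). Tap2 rose by 2.05 at 3 h and by 1.83 at 20 h. Tapbp, which holds empty class I molecules at the transporter, rose by 1.87 and 1.85 from a resting level of 269.8, 279.9, 304 and 305 CPM.

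The immunoproteasome subunits Psmb8, Psmb9 and Psmb10 rose by 1.67, 1.95 and 1.98 at 3 h and by 1.86, 1.91 and 1.76 at 20 h in Ahr+/+ BMMs. Psmb9 had 29.0, 30.7, 34.8 and 35.4 CPM in resting libraries at 3 h and 123, 132, 119 and 127 CPM in activated ones. At 20 h its activated libraries had 138, 128, 122 and 139 CPM. None of the 3 subunits changed between 3 h and 20 h of activation in Ahr+/+ BMMs by the test, with log2 differences of 0.15, 0.07 and -0.28 (adjusted p = 0.224, 0.582 and 0.0556).

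Nlrc5, the class I transactivator, rose early and then fell. Ahr+/+ resting libraries had 37.0, 38.5, 36.2 and 35.3 CPM at 3 h, and activated libraries had 376, 399, 335 and 355 CPM, 9.96-fold more (log2 3.32, SE 0.140, adjusted p = 3.46e-28). At 20 h the activated libraries had fallen to 136, 127, 141 and 116 CPM, still 4.21-fold above the resting values of 31.4, 33.6, 29.7 and 29.1 CPM. Nlrc5 was 2.81-fold lower at 20 h than at 3 h of activation in Ahr+/+ BMMs and 3.52-fold lower in Ahr-/- BMMs (log2 -1.49 and -1.82, adjusted p = 4.37e-15 and 4.76e-18), whereas the heavy chains rose over the same time.

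**Figure D2:**
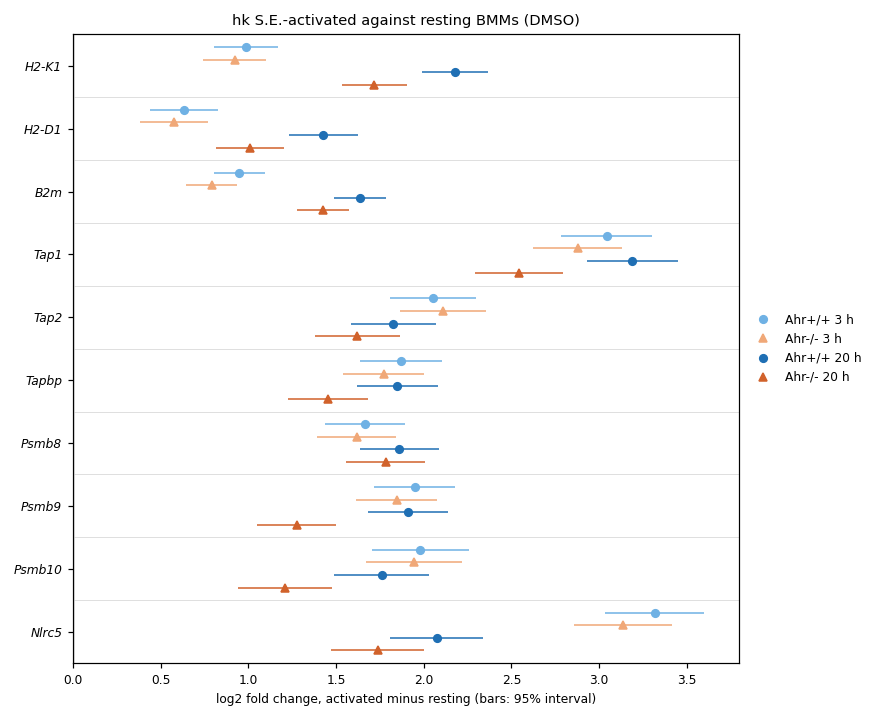
Log2 fold change of hk S.E. against resting BMMs after DMSO for each gene (y axis: gene; x axis: log2 fold change), with 95% intervals, in both genotypes at 3 h and 20 h. All intervals lie above 0; the response of H2-K1, H2-D1 and B2m was larger at 20 h and that of Nlrc5 larger at 3 h.

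Between 3 h and 20 h of activation 5 of the 10 genes were called in Ahr+/+ BMMs, where 59.5% of all genes were, and 8 in Ahr-/- BMMs, where 56% were. In Ahr+/+ BMMs H2-K1 (0.97), H2-D1 (0.57) and B2m (0.30) rose and Tapbp (-0.37) and Nlrc5 (-1.49) fell. In Ahr-/- BMMs H2-K1 (0.49) and B2m (0.22) rose, and Tap1 (-0.81), Tap2 (-0.67), Tapbp (-0.95), Psmb9 (-0.53), Psmb10 (-0.89) and Nlrc5 (-1.82) fell. The call of B2m was lost without any of 3 Ahr+/+ libraries at 3 h, replicates 1, 3 and 4, with values down to 0.19 (adjusted p = 0.0144 to 0.0334), and without any of 5 Ahr-/- libraries, replicates 1 to 3 at 3 h and 3 and 4 at 20 h, with values down to 0.14 (adjusted p = 0.0106 to 0.122). The call of Tapbp in Ahr+/+ BMMs was lost without replicate 2 at 20 h (-0.31, adjusted p = 0.0219). In resting BMMs, B2m was lower at 20 h in both genotypes (-0.38 and -0.41) and Tap1 (-0.47) and Tapbp (-0.63) in Ahr-/- BMMs alone passed the test, beside 6.07% of all genes in Ahr+/+ and 6.98% in Ahr-/- BMMs; whether the genotypes differ in this was not tested. The call of Tap1 was lost without any 1 of 4 of the 8 libraries, replicates 3 and 4 at 3 h and 1 and 2 at 20 h, with values of -0.45 to -0.35 (adjusted p = 0.0173 to 0.0653). Time since hk S.E. and time in culture cannot be told apart in the activated groups. The library identifiers of activated Ahr-/- BMMs after DMSO also began with 1 series number at 3 h and with another at 20 h. Time and series therefore cannot be told apart between these Ahr-/- groups. Whether the genotypes differ in the change between 3 h and 20 h of activation was not tested.

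No change of any of the 10 genes with a ligand was detected. In 8 comparisons of BaP or I3C with DMSO among activated BMMs, none of the 80 pairs of gene and comparison passed the edgeR test at an adjusted p below 0.01, and none had an unadjusted p under 0.05. Over all tested genes, 1.77% to 10.4% had an unadjusted p under 0.05 in these comparisons. The lowest unadjusted p was 0.0564, and DESeq2 and limma on the deposited values called none either. The ligands called few genes in all: BaP 0.0482% of genes in Ahr+/+ BMMs at 3 h and 0.234% at 20 h, I3C 0.131% and 0.509%, and in Ahr-/- BMMs BaP 0.0275% and 0.0138% and I3C 0.0206% and 0.206%. These shares rose where same-numbered libraries were treated as pairs, by a replicate block within genotype and time, most for BaP in Ahr+/+ BMMs at 20 h, from 34 to 619 genes or 4.26%; with a block within genotype it was 271 genes or 1.86%. The other 7 comparisons called between 5 and 195 genes with the block within genotype and time, and neither block called any of the 10 genes. Log2 fold changes of the 10 genes lay between -0.13 and 0.23. Their 95% intervals differed between genes: over the 8 comparisons they lay within -0.24 to 0.21 for B2m and within -0.29 to 0.48 for Psmb10, and over all genes within -0.39 to 0.48.

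Tap2 in Ahr+/+ BMMs at 3 h showed the largest of these values. After DMSO its libraries had 273, 264, 261 and 263 CPM, and after I3C 312, 329.6, 299.8 and 302 CPM, without overlap, a log2 fold change of 0.23 (SE 0.118, adjusted p = 0.983). After BaP they had 289, 353, 253 and 275 CPM. H2-K1, H2-D1 and Psmb10 likewise had all I3C libraries above all DMSO libraries at 3 h in Ahr+/+ BMMs, so that 4 of 10 genes were apart, beside 3.5% of all tested genes in this direction and 6.14% in either. At 20 h in Ahr-/- BMMs the I3C libraries of H2-K1, Tap2 and Psmb9 lay above and those of B2m below the DMSO libraries, beside 1.91% of all genes above and 1.73% below. None of these was called. BaP at 1 µM and I3C at 10 µM differed in dose, and none of the 10 genes was called between them in Ahr+/+ BMMs at either time, with 95% intervals from -0.32 to 0.30, where 0.11% of all genes were called at 3 h and 0.282% at 20 h. No gene of the 10 was called for a difference in ligand response between the genotypes, where 0.0138% of all genes were called for BaP at 3 h and 0% for BaP at 20 h and for I3C at both times by edgeR. With replicate blocks within genotype and time the counts over all genes were 4 for BaP at 3 h, 96 at 20 h, and 0 and 8 for I3C, and DESeq2 gave 2, 15, 0 and 2, with none of the 10 genes among them. At an unadjusted p below 0.05, 2.56% and 4.67% of all genes passed for BaP at 3 h and 20 h and 1.66% and 1.97% for I3C.

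**Figure D3:**
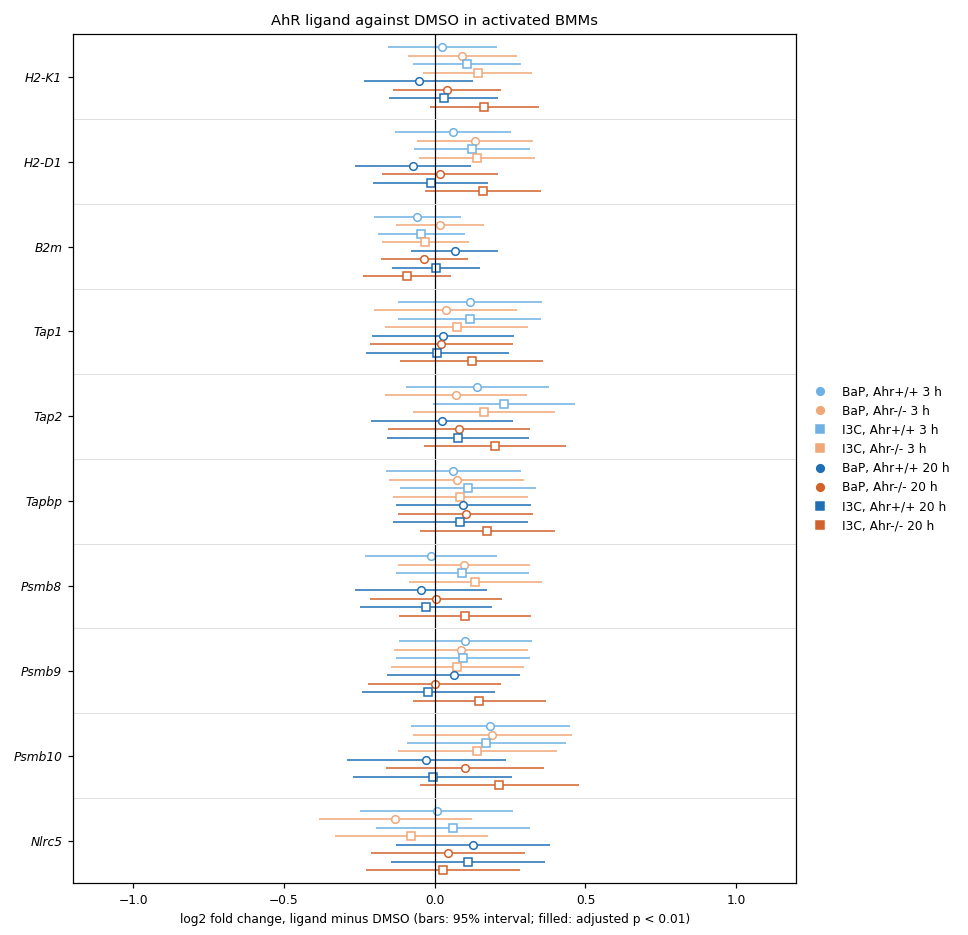
Log2 fold change of BaP or I3C against DMSO in activated BMMs (x axis) for each gene (y axis), with 95% intervals, for both genotypes and times. Every interval includes 0, and the values lie between -0.13 and 0.23.

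Tap1, Tapbp, Psmb9 and Psmb10 were lower in Ahr-/- than in Ahr+/+ BMMs after 20 h of activation with DMSO as pre-treatment, while none of the 10 genes passed the test after 3 h or in resting BMMs. At 20 h these 4 of 10 genes were called lower in Ahr-/- BMMs, where 7.39% of all genes were called lower and 12.5% in either direction. Tap1 had 668, 645, 622 and 682 CPM in Ahr+/+ and 358, 350.1, 441 and 414 CPM in Ahr-/- BMMs, without overlap and 1.68-fold lower (log2 -0.74, 95% interval -0.98 to -0.51, adjusted p = 4.39e-06). Psmb9 had 138, 128, 122 and 139 CPM against 86.8, 91.5, 90.7 and 86.2 CPM (log2 -0.57, SE 0.110, adjusted p = 0.000107), again with all Ahr-/- libraries below all Ahr+/+ libraries.

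Tapbp had 850.5, 704, 828 and 889 CPM in Ahr+/+ and 505, 496, 678 and 639 CPM in Ahr-/- BMMs at 20 h, which is 1.41-fold lower (log2 -0.50, SE 0.112, adjusted p = 0.00078). Psmb10 had 182, 160.1, 167 and 194.8 CPM against 104, 125, 135 and 124 CPM, 1.44-fold lower (log2 -0.53, SE 0.132, adjusted p = 0.00228), also without overlap. For Psmb10 the adjusted p was 0.0178 without Ahr-/- replicate 1 and 0.0127 without Ahr+/+ replicate 4, above the threshold, and Nlrc5 passed it without Ahr-/- replicate 3 (log2 -0.50, adjusted p = 0.00527).

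The other genes of the machinery did not pass the test at 20 h. Tap2 (-0.32, adjusted p = 0.0473) had all Ahr-/- libraries below all Ahr+/+ ones, and Nlrc5 (-0.39, 0.0218) overlapped. Psmb8, whose gene lies between Tap1 and Tap2, had 365, 325, 374 and 428 CPM in Ahr+/+ and 392, 381, 339 and 334 CPM in Ahr-/- BMMs (-0.05, 95% interval -0.27 to 0.17). The chains of the class I molecule were -0.19 for H2-K1 (adjusted p = 0.125, with 3163 to 3418 CPM in Ahr-/- and 3500 to 4083 CPM in Ahr+/+ libraries, without overlap), -0.18 for H2-D1 and 0.06 for B2m. In all, 6 of the 10 genes had every Ahr-/- library below every Ahr+/+ one, beside 11.9% of all tested genes. Psmb8 and Psmb9, both immunoproteasome subunits encoded within 1 stretch of the MHC, thus gave a called and an uncalled value; the difference between these values was not tested.

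The response to hk S.E. at 20 h was smaller in Ahr-/- BMMs for Tap1 (5.82-fold against 9.12-fold) and Psmb9 (2.42-fold against 3.76-fold), with interaction values of -0.65 (SE 0.168, adjusted p = 0.00794) and -0.64 (SE 0.157, adjusted p = 0.0048). These were 2 of 10 genes, beside 4.41% of all genes. At 3 h none of the 10 passed, beside 0.0138% of all genes. None of them had an unadjusted p under 0.05 there, beside 5.96% of all genes. The calls at 20 h depended on single libraries. Of 16 fits that each left out 1 library, Tap1 lost its call in 10 and Psmb9 in 8. The adjusted p of the interaction reached 0.0295 for Tap1 and 0.0206 for Psmb9 in these fits. Without any 1 of 6 libraries neither gene passed, namely Ahr+/+ resting replicates 1 and 3, Ahr+/+ activated replicates 1 and 4, Ahr-/- activated replicate 1 and Ahr-/- resting replicate 2.

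The genotype difference at 20 h was present after each pre-treatment, in comparisons added after the data had been seen. After BaP, Tap1 had 702, 707, 579 and 681 CPM in Ahr+/+ and 395, 327, 423 and 441 CPM in Ahr-/- BMMs (-0.75, adjusted p = 1.27e-06), and after I3C 664, 672, 594 and 704 against 401, 379.6, 483 and 438 CPM (-0.63, adjusted p = 5.29e-05). After BaP 4 genes were called lower, Tap1, Tapbp (-0.49), Psmb9 (-0.63) and Nlrc5 (-0.47), where 11.8% of all genes were, and after I3C Tap1, Tapbp (-0.41), Psmb9 (-0.40) and Nlrc5 (-0.47), where 8.17% were. Psmb10 was -0.40 after BaP and -0.31 after I3C and was not called (adjusted p = 0.0145 and 0.0802). After I3C the number of genes called was 1 without Ahr+/+ replicate 4 or Ahr-/- replicate 2, and 2 without Ahr+/+ replicate 1 or 2 or Ahr-/- replicate 1.

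**Figure D4:**
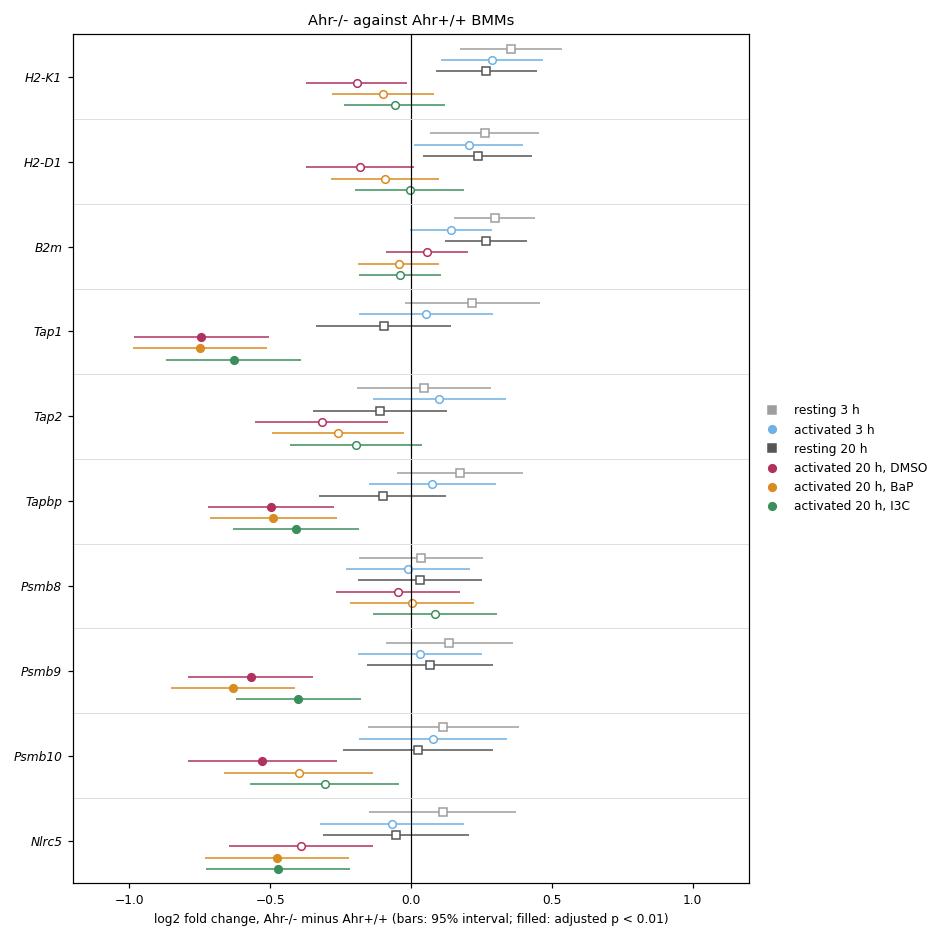
Log2 fold change of Ahr-/- against Ahr+/+ BMMs (x axis) for each gene (y axis) with 95% intervals, after DMSO resting and activated at 3 h and 20 h, and after BaP and I3C at 20 h; filled symbols have an adjusted p below 0.01. At 20 h of activation after DMSO the values of Tap1, Psmb9, Psmb10 and Tapbp lie between -0.74 and -0.50, and the intervals of H2-D1, B2m and Psmb8 include 0.

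Genotype at 20 h of activation could not be separated from a part of the library identifiers. The library identifiers in the labels begin with 1 of several series numbers, whose meaning is not given. All activated Ahr+/+ libraries at 20 h belonged to 1 series and all Ahr-/- libraries at 20 h to another, so that genotype and series cannot be told apart within the activated groups. A fit with the series as a term can set these 2 series apart only through the 3 resting groups that hold both of them. It called none of the 10 genes at 20 h after DMSO, while calls over all genes went from 1811 to 493 (3.39%). Tap1 was -0.55 (SE 0.160, adjusted p = 0.0228), Psmb9 -0.41 (0.0754), Tapbp -0.26 (0.32) and Psmb10 -0.21 (0.522). With this term Tap1 passed the test after BaP (-0.55, adjusted p = 0.00845), where calls over all genes went from 3385 to 1967, and none of the 10 after I3C, where they went from 2274 to 1092, and the interactions of Tap1 and Psmb9 were -0.62 and -0.63 (adjusted p = 0.0185 and 0.0106).

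In resting BMMs and after 3 h of hk S.E. the means of the class I chains were higher in Ahr-/- BMMs, without a call after DMSO. H2-K1 in resting BMMs at 3 h had 888, 1338, 1318 and 1407 CPM in Ahr-/- against 873, 914, 1127 and 959.6 CPM in Ahr+/+ libraries (0.35, adjusted p = 0.0168), and B2m had 2241, 2374, 2533 and 2541 against 1930, 2164, 1880 and 1914 CPM (0.30, adjusted p = 0.0114). The B2m libraries did not overlap, while the first Ahr-/- library of H2-K1 lay among the Ahr+/+ ones. None of the 10 genes was called at 3 h resting, at 20 h resting or at 3 h activated, where 1.21%, 0.702% and 2.83% of all genes were, and 2, 1 and 1 of the 10 had an adjusted p below 0.05, beside 2.19%, 1.82% and 6.21% of all genes. B2m in resting BMMs at 3 h was the 1 gene of the 10 whose libraries were apart at that time, beside 5.94% of all genes.

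Replicate 1 of the resting Ahr-/- group at 3 h was the lowest library of its group in all 10 genes. Without it, H2-K1 (0.48, adjusted p = 0.000139), H2-D1 (0.38, 0.00887) and B2m (0.33, 0.0073) were called higher in Ahr-/- BMMs. This library belonged to another identifier series than replicates 2 to 4 of the group. Within its series H2-K1 was 888 CPM against 914 and 959.6 CPM in the Ahr+/+ libraries, and within the other series 1338, 1318 and 1407 against 873 and 1127 CPM. Leaving out Ahr+/+ replicate 2 or 3 gave 1 call. After 3 h of hk S.E., H2-K1 had 2211, 2419, 2387 and 2359 CPM in Ahr-/- and 1908, 1915, 1960 and 1900 CPM in Ahr+/+ BMMs without overlap (0.29, adjusted p = 0.0421), 1 of 2 genes apart at that time beside 12.1% of all genes, and after BaP at 3 h the difference was 0.35 (adjusted p = 0.00614), 1 of 10 genes where 2.7% of all genes were called higher. After I3C at 3 h none of the 10 was called, beside 2.85% of all genes, and H2-K1 was 0.32 (adjusted p = 0.0184). The call after BaP was lost without any 1 of 6 of the 8 libraries, that is any Ahr+/+ library and Ahr-/- replicates 2 and 3.

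Markers of other cells were at low levels, but some moved with the groups. Among the macrophage markers, Cd68 (-0.69) and Fcgr1 (-1.25), the high-affinity Fc receptor, were lower in Ahr-/- BMMs at 20 h of activation (edgeR adjusted p = 1.33e-05 and 3.32e-10). The summed macrophage list, which also holds Adgre1, Itgam, Csf1r, Lyz2 and Mertk, had the higher median in Ahr-/- BMMs. It was 18700 to 30300 CPM (median 23000) in Ahr-/- and 17300 to 21200 CPM (median 20200) in Ahr+/+ libraries. Of 15 tested markers of all cell types, 4 were called lower and 1 higher in Ahr-/- BMMs, beside 7.39% and 5.06% of all genes. The fibroblast list summed to 6.73 to 9.05 CPM in Ahr-/- and 2.76 to 3.88 CPM in Ahr+/+ BMMs and the dendritic cell list to 0.075 to 0.442 against 0.859 to 1.83 CPM. Over all libraries of the series, the fibroblast marker Pdgfrb reached 28.8 CPM, while Col1a1 and Col1a2 reached at most 3.54 and 4.28 CPM and were absent from some. With activation at 3 h, the neutrophil list went from 12.4 to 28.0 CPM to 79.5 to 177 CPM in Ahr+/+ BMMs, mainly through S100a8 and S100a9. The part of these cells or markers in the results was not tested.

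Immunoproteasome subunits replace constitutive subunits at the same site, so that the ratio of Psmb8 to Psmb5, Psmb9 to Psmb6 and Psmb10 to Psmb7 was taken within each library on CPM per kb. The constitutive subunits rose as well: Psmb6 by 1.04 at 3 h and 1.95 at 20 h, Psmb7 by 0.80 and 0.99, and Psmb5 by 1.38 at 20 h, with 0.26 at 3 h and no call. The Psmb8 to Psmb5 ratio was 0.631, 0.634, 0.609 and 0.629 in resting and 1.61, 1.80, 1.47 and 1.79 in activated Ahr+/+ libraries at 3 h. At 20 h it was 0.750, 0.720, 0.728 and 0.766 in resting and 1.01, 1.04, 0.984 and 1.12 in activated libraries. The ratio was thus higher in every activated library, with a log2 difference of 1.41 at 3 h and 0.48 at 20 h.

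The ratio of Psmb9 to Psmb6 was higher at 3 h in every activated Ahr+/+ library (geometric mean 0.205 against 0.109, log2 difference 0.91), while at 20 h it was 0.138 in activated and 0.14 in resting Ahr+/+ BMMs (log2 difference -0.01, exact permutation p = 0.83). The ratio of Psmb10 to Psmb7 in Ahr+/+ BMMs was 0.571 when resting and 1.31 when activated for 3 h, and 0.573 against 0.98 for 20 h. In Ahr-/- BMMs at 20 h it was 0.619 in resting and 0.66 in activated libraries (log2 difference 0.09, exact permutation p = 0.6). Between the genotypes at 20 h of activation it was 0.540, 0.607, 0.840 and 0.689 in Ahr-/- against 1.07, 0.921, 0.986 and 0.946 in Ahr+/+ libraries, without overlap (log2 difference -0.57). With 4 against 4 libraries the exact two-sided permutation test cannot go below p = 0.0286, which groups without overlap reached. After adjustment over 18 tests this was 0.0514, so that no ratio passed 0.05. The adjusted value depends on how many of the 18 tests reached the smallest p.

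**Figure D5:**
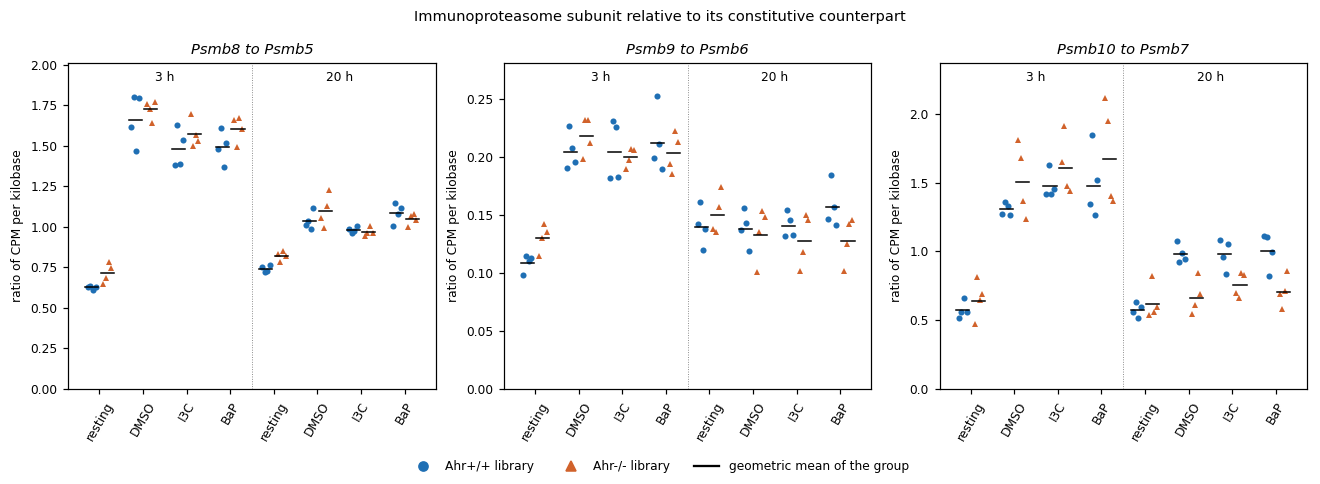
Ratio of each immunoproteasome subunit to its constitutive counterpart in CPM per kilobase (y axis, from 0); the x axis gives resting BMMs and BMMs activated after DMSO, I3C or BaP at 3 h and 20 h, each point is 1 library and lines are geometric means. The Psmb9 to Psmb6 ratio is higher with activation at 3 h and overlaps with the resting libraries at 20 h.

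Of 31 companion genes of class I presentation, 29 were tested, and most rose with activation: 23 higher and 2 lower in Ahr+/+ BMMs at 3 h, 24 and 2 at 20 h, and in Ahr-/- BMMs 23 and 2 at 3 h and 22 and 2 at 20 h. Over all tested genes, 32.3%, 28.7%, 31.8% and 26% were called lower in these 4 comparisons, beside the shares called higher given above. All 10 tested nonclassical class I genes were called higher in all 4 comparisons. At 20 h H2-Q6 (7.50) and H2-Q7 (6.88) had the largest log2 fold changes in Ahr+/+ BMMs, followed by H2-T24 (4.54) and H2-T10 (3.30); H2-Q6 went from a mean of 1.95 ± 0.361 to 345 ± 43.0 CPM (SD, n = 4). These genes share sequence, so that their levels are uncertain. At 3 h Irf1 (5.22), the interferon regulatory factor of class I promoters, and Nfkb1 (3.28), an NF-κB subunit, led, whereas Rfxap (-1.22) and Rfxank (-1.64), subunits of the X box binding complex, fell.

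Among the companions, 6 of 29 were lower and 1 higher in Ahr-/- BMMs at 20 h of activation, beside 7.39% and 5.06% of all tested genes. The tapasin-related peptide editor Tapbpl (-0.69), Irf1 (-0.58), H2-T22 (-0.41), H2-T23 (-0.76), H2-T24 (-0.77) and the class II transactivator Ciita (-1.30, at means of 0.631 and 1.60 CPM) were lower and Nfkb1 (0.42) was higher. At 3 h of activation H2-Q6 (0.89) and H2-Q7 (1.00) were higher and the chaperone Pdia3 (-0.45) lower, where 1.22% of all genes were higher and 1.61% lower, and in resting BMMs at 3 h H2-Q4 (0.65), H2-Q6 (1.02) and H2-Q7 (1.01) were higher, where 0.241% of all genes were. The ligands called none of the companions in Ahr+/+ BMMs.

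Genes of the interferon response were also called in these comparisons. Of 22 genes, 21 were tested; all 21 rose with hk S.E. in Ahr+/+ BMMs at both times and in Ahr-/- BMMs at 3 h, and 20 rose in Ahr-/- BMMs at 20 h, beside 24.2% to 29.9% of all tested genes. At 20 h of activation 12 of the 21 were lower in Ahr-/- BMMs, where 7.39% of all genes were, and none was higher, with Ifnb1 (-2.51), the gene of interferon-β, the antiviral Mx1 (-2.15), Rsad2 (-2.09) and Ifit2 (-1.86) lowest, and at 3 h none was called. Ifnb1 was at 16.8 ± 4.19 CPM in activated Ahr+/+ BMMs at 3 h and 0.898 ± 0.449 CPM at 20 h, and in Ahr-/- BMMs at 11.2 ± 6.97 and 0.171 ± 0.131 CPM (SD, n = 4). Ifng was not tested, since its mean in the DMSO groups was at most 0.0695 CPM. Whether these genes have a part in the class I differences was not tested.

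Across the means of the 16 groups the courses of the 10 genes were compared by correlation, given as a description over groups that share genotype, time and activation. On log2 CPM, Pearson's r was 0.991 between H2-K1 and H2-D1 and 0.967 between H2-K1 and B2m. Between Tap1 and Psmb9, which share the window printed above, r was 0.995, between Tap1 and Tap2 0.991, and between Tapbp and Psmb10 0.992. Between H2-K1 and Nlrc5 it was 0.543. Clear sets did not follow from this: Psmb8 had r = 0.955 with B2m and 0.965 with Tap1, and Tap1 had 0.899 with B2m. Values of r between other pairs of genes in the series are not given beside these. Outside the set, the genes most like the average of the 10 were Nfkb2 (r = 0.998), Stk40, Itgb8, Isg15, Traf2, Dhx58, Slc11a2, Irf9, Malt1 and Dtwd1 (0.993).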

How the data were processed

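Stranded mRNA libraries were sequenced from BMMs in 64 samples. Per the labels and the methods, the authors trimmed reads with AdapterRemoval, aligned them to mm10 with HISAT2 2.1.0 after bcl2fastq 2.19.0.316, and counted read pairs on exons of GENCODE genes by strand with HTSeq 0.9.1, leaving out multiply aligned reads. The deposited values are these raw counts per gene and library. The authors also deposited variance-stabilized log2 values from DESeq2, which were used here as an alternative only.

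Groups were taken from the sample titles. The 5 rows that name no gene were left out, and 74.9% to 80.8% of read pairs per library remained on genes (median 24499165). No pair of libraries held identical counts. Genes passing filterByExpr (minimum count 10) were fitted with 16 group means in edgeR 4.0.16 (R 4.3.3) with TMM library sizes, quasi-likelihood tests (48 residual degrees of freedom) and Benjamini-Hochberg adjustment over all 14537 genes, with a threshold of 0.01. CPM are counts per 1000000 of the TMM library size. Log2 CPM values use a prior count of 2, and intervals of log2 fold changes are at 95%. Ratios were tested by exact two-sided permutation. Exon lengths and positions are from GENCODE (GRCm38; 55394 of 55487 identifiers matched) and promoters from RefSeq. The fit was tested on simulated counts.

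All 10 genes are named. Of the companion and interferon lists and the markers, at most 4 called genes per list and comparison with the largest change were to be named; any other listed gene was picked with its value in view. The 10 further genes are those with the highest correlation over group means. The genes and lists were chosen with earlier results of these data known. Alternatives tried were DESeq2 1.42.0, limma 3.58.1 on the log2 values, other size factors, filters and thresholds, fits to the compared groups alone, blocks of replicate numbers, the identifier series as a term, and leaving out each library. The genotype comparisons after BaP and I3C were added after the data were seen.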

Additional observations from a re-analysis of the deposited data

Results flagged for a closer look

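In 10 of 160 groups of 4 libraries a member gene had a library whose gap to the others passed Dixon's 95% critical value, where chance gives about 8. H2-D1 was at 4226 CPM in replicate 2 of Ahr-/- BMMs with I3C at 3 h (the others 3671 to 3725), and Tapbp in the same library at 1258 CPM (1151 to 1168). B2m was at 4686 CPM in replicate 3 of Ahr+/+ BMMs with BaP at 20 h (4969 to 5022), and Tap2 in the same library at 194 CPM (234 to 237). B2m was at 5132 CPM in replicate 4 of Ahr-/- BMMs with DMSO at 20 h of activation (4787 to 4819), and Tap2 at 69.2 CPM in replicate 2 of resting Ahr-/- BMMs at 20 h (53.4 to 55.1). In replicate 2 of Ahr+/+ BMMs with BaP at 3 h, Psmb8 was at 375 CPM (316 to 324) and Psmb9 at 155 CPM (126 to 129.8). With I3C at 20 h in Ahr+/+ BMMs, Tapbp was at 783 CPM in replicate 2 (887 to 906) and Psmb9 at 117 CPM in replicate 3 (133 to 136).

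The response to hk S.E. differed between genotypes at 20 h, by the interaction test of edgeR, for Tap1 (-0.65) and Psmb9 (-0.64). It differed between 20 h and 3 h in Ahr+/+ BMMs for H2-K1 (1.19), H2-D1 (0.80), B2m (0.69) and Nlrc5 (-1.24), and in Ahr-/- BMMs for H2-K1 (0.80), H2-D1 (0.44), B2m (0.63), Psmb9 (-0.57), Psmb10 (-0.74) and Nlrc5 (-1.40), all on the log2 scale.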

How the results depend on the processing

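No fold change reversed its direction past the threshold under any alternative. With other size factors, all 34 counts of called genes stayed within 1.5 times the value given. Activation called 10 and the ligands 0 of the 10 genes under every alternative run. With an adjusted p below 0.05 the calls were 2 for genotype in resting BMMs at 3 h, 1 resting at 20 h, 1 activated at 3 h, 2 after BaP and 1 after I3C at 3 h, 2 and 5 for time in resting Ahr+/+ and Ahr-/- BMMs, and 4 for activation by genotype at 20 h. The shares of all genes at this threshold were, in the same order, 2.19%, 1.82%, 6.21%, 11.4%, 6.82%, 11.4%, 12.5% and 9.13%. Without a filter on low counts they were 1 for activation by genotype at 20 h, 0 for genotype after BaP at 3 h and 1 after I3C at 20 h; with a minimum count of 50, 1 for genotype resting at 3 h. With the identifier series as a term they were 1 for genotype resting at 20 h, 0 activated at 20 h, 1 after BaP and 0 after I3C at 20 h, 1 for time in resting Ahr-/- BMMs and 0 for activation by genotype at 20 h. The shares of all genes with this term were, in the same order, 0.248%, 3.39%, 13.5%, 7.51%, 2.33% and 3.55%. Fitting the compared groups alone, with fewer libraries, gave 2 for genotype activated at 20 h, 0 after BaP at 3 h, 2 after I3C at 20 h, 2 and 0 for time in resting Ahr+/+ and Ahr-/- BMMs, 0 for activation by genotype at 20 h and 3 for activation by time in Ahr-/- BMMs. limma gave 1 for genotype resting at 3 h. DESeq2 gave 2 for genotype resting at 3 h, 1 resting at 20 h, 1 after I3C at 3 h and 4 for activation by genotype at 20 h. For the filters, the fits to the compared groups, limma and DESeq2, shares of all genes are not given beside these counts. The causes of these differences were not tested, apart from fewer libraries or the looser threshold itself.

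Leaving out 1 library at a time, calls ranged from 0 to 3 for genotype resting at 3 h, 3 to 5 activated at 20 h, 0 to 1 after BaP at 3 h, 3 to 5 after BaP and 1 to 3 after I3C at 20 h, 0 to 3 for activation by genotype at 20 h, 4 to 4 and 5 to 7 for activation by time in Ahr+/+ and Ahr-/- BMMs, 4 to 5 and 7 to 8 for time in activated and 1 to 1 and 2 to 6 for time in resting Ahr+/+ and Ahr-/- BMMs. The 6 calls came without replicate 1 of resting Ahr-/- BMMs at 3 h.

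The labels give every group replicates 1 to 4 but do not say what a number marks. Of 48 pairs of same-numbered libraries at a time in each genotype, 45 in Ahr-/- and 32 in Ahr+/+ BMMs correlated over 0.1. So did 49 in Ahr-/- and 2 in Ahr+/+ BMMs of 144 pairs with different numbers at a time. In all, 56 of 64 libraries correlated best with their own number. A replicate block within genotype gave 2 and 5 calls for time in resting Ahr+/+ and Ahr-/- BMMs, where 13.4% and 14.4% of all genes were called. A block within genotype and time gave 4 for activation by genotype at 20 h, where 13.8% of all genes were called. Other counts stayed within 1.5 times. No block was used between genotypes, whose mice differ. The lowest count of any of the 10 genes in a library was 430, so that the number of libraries rather than the depth limits the precision.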

Other observations

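Within groups of 4, many libraries of activated Ahr-/- BMMs were ordered alike across genes at 3 h, and fewer at 20 h. At 3 h, replicates 1 and 2 both lay above replicates 3 and 4 in 22 of 30 combinations of gene and pre-treatment, the reverse held in 1 and the order was mixed in 7. At 20 h replicates 3 and 4 lay above in 14, replicates 1 and 2 in 5, and 11 were mixed; Psmb8 had replicates 1 and 2 above after every pre-treatment, whereas Tap1, Tapbp and Nlrc5 had replicates 3 and 4 above. In activated Ahr+/+ BMMs 13 combinations at 3 h had replicates 1 and 2 above and 17 were mixed, and at 20 h 5 had replicates 1 and 2 above, 2 the reverse and 23 were mixed.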
